A study of Mus musculus with 3 samples.

Results

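The levels of 10 imprinted growth genes other than Igf2 were followed in 3 kinds of cultured mouse cell. The members are Dlk1, Sgce, Grb10, Cdkn1c, Plagl1, Peg3, Ndn, Mest, Peg10 and Impact. They were chosen by symbol as imprinted mouse genes, and all 10 were found among the 18245 genes of the deposited table. Cardiosphere-derived cells (CDC, labelled cdc) are adherent cells obtained from tissue explants through a stage of floating spheres. Their tissue here was strips of ventricle epicardium, the outer sheet of the heart. CDC-EpiC (labelled cdc_EpiCs) is a single epithelial clone, isolated by cylinder after CDC had been kept for 2 weeks with 10 µM SB-431542, a small molecule that blocks the TGF-beta type I receptor kinase. Since the libraries of CDC-EpiC come from 1 clone, their spread holds no difference between clones. In CDC-EpiC against CDC, the treatment, the time in culture and the choice of clone cannot be told apart. Primary epicardial cells (pEpiC, labelled pEpiCs) were released by enzymes from the heart and grown in another medium and on another coating than CDC, so medium, isolation and kind of cell cannot be told apart. All mice were adult C57BL/6 per the labels and the study's methods, and no transgene is named for these libraries.

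Genomic imprinting marks a gene in the egg or the sperm, so that only the maternal or only the paternal copy is used later. The mark is DNA methylation at a control region, which is kept through cell division by maintenance methylation and by zinc finger proteins such as ZFP57 that bind the methylated copy. Many imprinted genes act on growth before birth, and several form a network that is high in the embryo and falls in adult tissue. Grb10 and Cdkn1c are used from the maternal copy in most tissues, and the other members from the paternal copy. The present data count the RNA of both copies together and cannot show which copy was used.

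Each kind had 3 libraries, with 22008833 to 22756045 expected counts each. The labels do not say whether the libraries of a kind came from separate cultures, so p-values measure the spread between these libraries only. Markers fitted the labels in part. Wt1, the zinc finger factor of the epicardium, had 202 to 250 counts in CDC, 2502 to 2998 in CDC-EpiC and 1082 to 1252 in pEpiC. The summed level of 11 epicardial markers was 538 to 584 TPM (transcripts per 1000000) in CDC, 4545 to 5163 in CDC-EpiC and 585 to 613 in pEpiC. Most of the sum in the clone was Upk3b, Upk1b and Lrrn4, and other markers had another order. Tcf21 had 261 to 274 counts in CDC, 578 to 700 in CDC-EpiC and 2182 to 2516 in pEpiC, and Aldh1a2 had 47 to 53, 38 to 54 and 407 to 519. Krt8 and Krt18 were also highest in pEpiC, though low there, at 59 to 66 and 34 to 55 counts. Krt19 went the other way, with 635 to 900 counts in CDC, 468 to 646 in CDC-EpiC and 23 to 31 in pEpiC. Upk3b, Upk1b and Msln were lowest in pEpiC as well, and Tbx18 was highest in CDC. The 10 mesenchymal markers summed to 8918 to 10702 TPM in CDC, 4407 to 5076 in CDC-EpiC and 16385 to 17849 in pEpiC. Pdgfra, Pdgfrb, Col1a1, Col1a2 and Col3a1 were highest in pEpiC. Thy1, Vim, Cd44 and Acta2 were highest in CDC, and Eng was lowest in pEpiC.

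In CDC and in pEpiC, single libraries stood apart from others of their kind. CDC libraries 1 and 2 held transcripts of blood, liver and heart muscle that were absent or fewer in CDC library 3. The 5 red blood cell genes summed to 162 and 259 TPM in CDC libraries 1 and 2, and to 0.17 in CDC library 3. The 8 liver genes summed to 87.6, 93.3 and 30.9 TPM in the same order, and Alb, the main plasma protein of liver, had 660, 599 and 1 counts. Myh6, the heavy chain of heart muscle myosin, was at 190.67, 189.59 and 0 counts. The 10 heart muscle markers summed to 39, 37.2 and 14.6 TPM in CDC and to 16 to 20.4 in CDC-EpiC. Their sum was highest in pEpiC, at 282 to 321 TPM, most of it Tnnt2. In pEpiC library 1 the 10 macrophage markers summed to 1698 TPM, against 697 and 618 in pEpiC libraries 2 and 3. Outside pEpiC the list was uneven. Ptprc, Adgre1 and C1qb were at 3 counts or fewer in every CDC and CDC-EpiC library, while Lyz2 had 786 to 867 counts and Csf1r 409 to 448 in CDC, and Cd68 had 281 to 328 and Csf1r 197 to 217 in CDC-EpiC. Results that rest on these libraries are given with and without them, and their part in the results was not tested.

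The windows around the annotated start of 3 members are shown because these members span the range of the set: Grb10 and Plagl1 differed most between kinds, and Mest stayed low throughout. The sequences are those of RefSeq on GRCm38.p6, from 250 bases before to 50 bases after a start, 5′ to 3′ on the strand of the gene. Capitals mark the letters GCGGCA, which are TGCCGC on the other strand, the core of the motif of ZFP57.
Grb10, chr11:12037371-12037670, minus strand: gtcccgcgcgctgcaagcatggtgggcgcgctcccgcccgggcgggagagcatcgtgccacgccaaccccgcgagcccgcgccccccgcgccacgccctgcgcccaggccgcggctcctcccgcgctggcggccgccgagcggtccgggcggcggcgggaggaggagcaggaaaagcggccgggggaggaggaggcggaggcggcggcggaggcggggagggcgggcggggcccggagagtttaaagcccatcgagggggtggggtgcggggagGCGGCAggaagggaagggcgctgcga
Grb10, chr11:12027922-12028221, minus strand: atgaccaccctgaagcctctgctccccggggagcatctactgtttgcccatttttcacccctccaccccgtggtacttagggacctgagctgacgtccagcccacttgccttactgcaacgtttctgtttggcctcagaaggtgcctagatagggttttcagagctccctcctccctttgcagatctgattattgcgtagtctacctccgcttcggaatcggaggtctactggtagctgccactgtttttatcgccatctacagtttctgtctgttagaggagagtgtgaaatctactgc
Plagl1, chr10:13090582-13090881, plus strand: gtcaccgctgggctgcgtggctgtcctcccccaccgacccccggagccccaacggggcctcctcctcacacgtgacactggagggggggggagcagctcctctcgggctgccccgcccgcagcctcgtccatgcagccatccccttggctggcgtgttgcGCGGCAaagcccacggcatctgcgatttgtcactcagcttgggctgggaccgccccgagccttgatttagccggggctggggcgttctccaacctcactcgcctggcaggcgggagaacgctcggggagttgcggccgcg
Mest, chr6:30737800-30738099, plus strand: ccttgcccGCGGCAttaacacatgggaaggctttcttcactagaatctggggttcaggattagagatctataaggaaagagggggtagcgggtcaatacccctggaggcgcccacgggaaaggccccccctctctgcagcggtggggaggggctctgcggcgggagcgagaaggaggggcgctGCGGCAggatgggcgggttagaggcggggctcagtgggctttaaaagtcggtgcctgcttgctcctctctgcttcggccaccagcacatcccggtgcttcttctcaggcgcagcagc
The upstream Grb10 window was 80% G or C and held 45 CpG, the dinucleotide that carries DNA methylation. Only 1.93% of 32851 windows of this length held as many, and the median window held 7. The second Grb10 window held 9 CpG, which shows how unlike the 2 starts are. The Plagl1 window held 26 CpG and the Mest window shown held 17. The window at the upstream Mest start, chr6:30733256-30733555, is not shown. It held 8 CpG and 0 matches to the core. The table gives 1 value per gene, so the level of each start is not known.

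Windows of 6 of the 10 members were used, 9 in all. No entry was found for Sgce, Peg10 and Cdkn1c. Windows on chromosome 18, where Impact lies, were left out of the members' windows but kept among all windows. The letters TGCCGC, searched on both strands, were in 4 of the 9 windows and in 11.6% of all windows. Of those 4, 2 are Mest windows that overlap almost wholly. The palindrome GGGGCCCC, which the zinc finger factor PLAGL1 is known to bind, was in 1 of the 9, the Peg3 window, and in 1.08% of all windows. The Ndn window held 11 CpG and the Dlk1 window 9. These matches describe letters and not bound sites.

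Compared per transcript length in TPM, the order of the members differed between kinds. In CDC the highest were Ndn at 59.3 ± 2.64, Sgce at 57.3 ± 7.49 and Impact at 54.8 ± 4.66 TPM (SD, n = 3). Neighbours among these 3 overlapped between libraries. Peg10 followed at 6.55 ± 0.303 and Peg3 at 3.57 ± 0.417 TPM, each clear of its neighbours. Dlk1 at 1.62, Grb10 at 1.22, Cdkn1c at 0.687, Mest at 0.54 and Plagl1 at 0.4 TPM came last, each overlapping the next.

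In CDC-EpiC, Sgce stood first at 58 ± 1.76, before Impact at 41.3 ± 2.41 and Ndn at 20.8 ± 1.18 TPM, with no overlap between them. Grb10 was last at 0.09 ± 0.0361 TPM, overlapping Plagl1 at 0.1 ± 0.0624. Grb10 came first in pEpiC. It stood at 170 ± 12.6 TPM, above 94.6% of the genes of the table, and made up 29% of the summed TPM of the members. Sgce at 128 ± 4.49 and Impact at 124 ± 7.52 TPM overlapped, and Ndn followed at 105 ± 3.4. Dlk1 was last in pEpiC at 0.553 ± 0.303 TPM. The summed level of the 10 members was 174 to 201 TPM in CDC, 131 to 133 in CDC-EpiC and 569 to 609 in pEpiC.

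**Figure D1:**
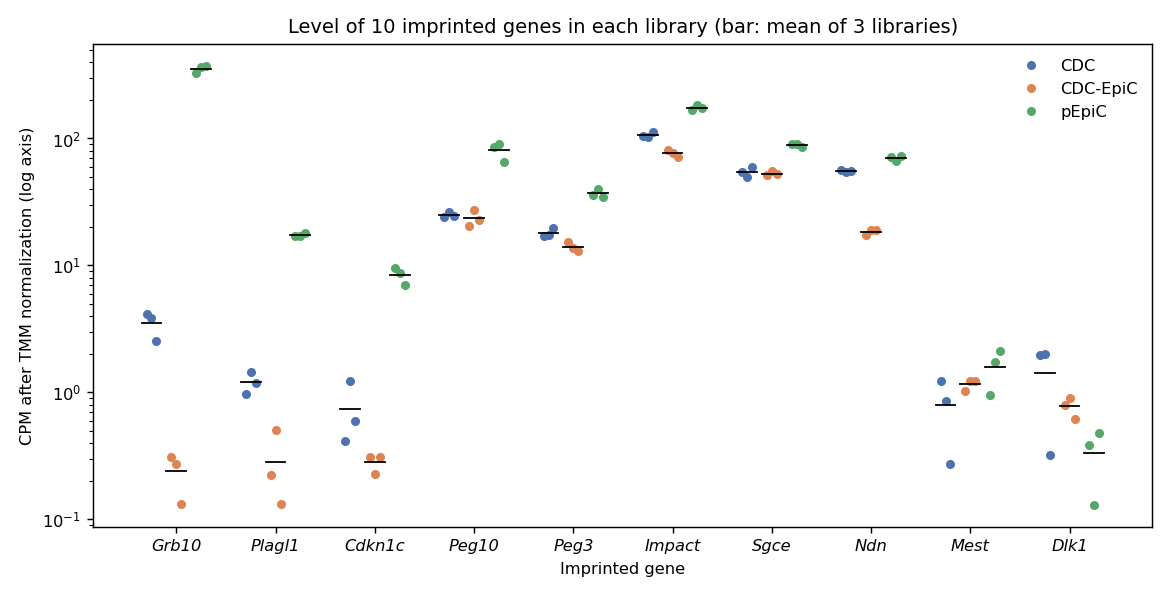
CPM (counts per 1000000 after TMM normalization, log axis) of the 10 members in each of the 9 libraries, coloured by kind, with black bars at the mean of 3 libraries. Grb10, Plagl1 and Cdkn1c lie far higher in pEpiC than elsewhere, and Dlk1 and Mest stay at or under 2.1 CPM in every library.

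Differences between kinds were fitted over all genes in edgeR, and log2 changes are given with their standard error (SE) and with p-values adjusted by Benjamini-Hochberg over all genes tested, with 0.05 as the threshold. In pEpiC against CDC, 9 of the 10 members passed, 8 higher and 1 lower in pEpiC. Over all 13526 genes tested, 78.3% passed, 39.8% higher and 38.5% lower. The median log2 change was 0.98 over the members and 0.02 over all genes tested. In CDC-EpiC against CDC, 9 members were tested, and 5 passed, all of them lower in the clone. Over all 12976 genes, 68.8% passed, 34.2% higher and 34.6% lower. The median was −0.49 over the members and 0.00 over all genes.

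In CDC-EpiC against pEpiC, 9 of 10 passed, 8 lower and 1 higher in the clone, where 81.9% of 13547 genes passed, 40.3% higher and 41.5% lower. The median was −1.60 over the members and −0.02 over all genes. The 3 comparisons share libraries in pairs, so their values are set side by side and are not independent. With TPM in place of scaled counts the median of all genes moved to 0.41 in pEpiC vs CDC and to −0.33 in CDC-EpiC vs pEpiC. Calls that were higher then made up 74.5% against 50.8% in the former, and 32.9% against 49.3% in the latter.

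**Figure D2:**
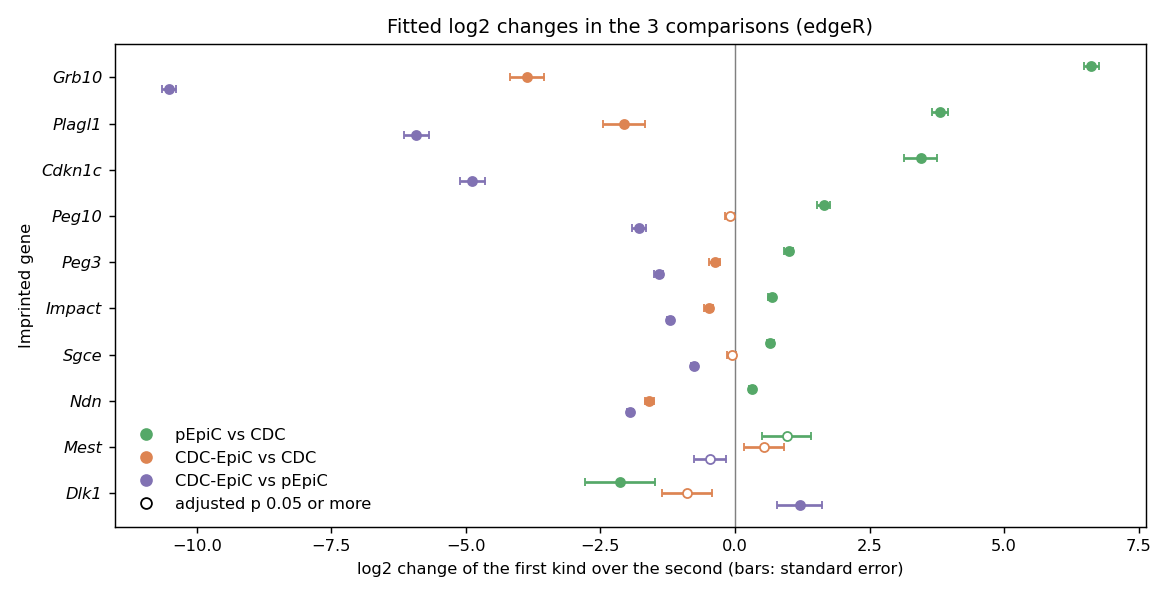
Fitted log2 change of each member in the 3 comparisons, first kind over second, with bars for the standard error and open circles where the adjusted p is 0.05 or more. Grb10, Plagl1 and Cdkn1c show the widest changes. In this fit Dlk1 is the only member that moves against the others in the 2 comparisons with pEpiC, and its calls were lost under some other settings.

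The members at the cell surface were Dlk1 and Sgce, and their fitted changes in pEpiC vs CDC had opposite signs. Dlk1 is a transmembrane protein with EGF-like repeats that resembles Notch ligands and restrains the differentiation of fat cells. Its gene on chromosome 12 (109452485 to 109463336) had 43, 44 and 7 counts in CDC, 18, 20 and 14 in CDC-EpiC and 9, 3 and 11 in pEpiC. The value of CDC library 3 lay below all of CDC-EpiC and within the range of pEpiC, so CDC overlapped both other kinds. In CPM, Dlk1 stood at 1.43 ± 0.964 in CDC, 0.777 ± 0.146 in CDC-EpiC and 0.333 ± 0.181 in pEpiC (SD, n = 3). The log2 change of pEpiC vs CDC was −2.13 (SE 0.65, adjusted p 0.012), and that of CDC-EpiC vs CDC was −0.89 (SE 0.46, adjusted p 0.098).

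The Dlk1 values of CDC went with the blood and liver transcripts, which were high in CDC libraries 1 and 2. Without those 2 libraries the log2 change of pEpiC vs CDC was 0.03 (adjusted p 0.98) and that of CDC-EpiC vs CDC was 1.27 (adjusted p 0.066). Without CDC library 1 alone, or 2 alone, pEpiC vs CDC gave adjusted p-values of 0.058 and 0.052. Without CDC library 3 alone, CDC-EpiC vs CDC passed at −1.36 (adjusted p 0.00037). Dlk1 was higher in CDC-EpiC than in pEpiC, at a log2 change of 1.2 (SE 0.41, adjusted p 0.022), with counts that did not overlap and TPM values that did. This call was lost with an offset for transcript length, at 0.73 (adjusted p 0.13), and in DESeq2 (adjusted p 0.095). The bulk counts cannot tell fewer Dlk1-bearing cells from less Dlk1 RNA per cell, and the same holds for every member.

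**Figure D3:**
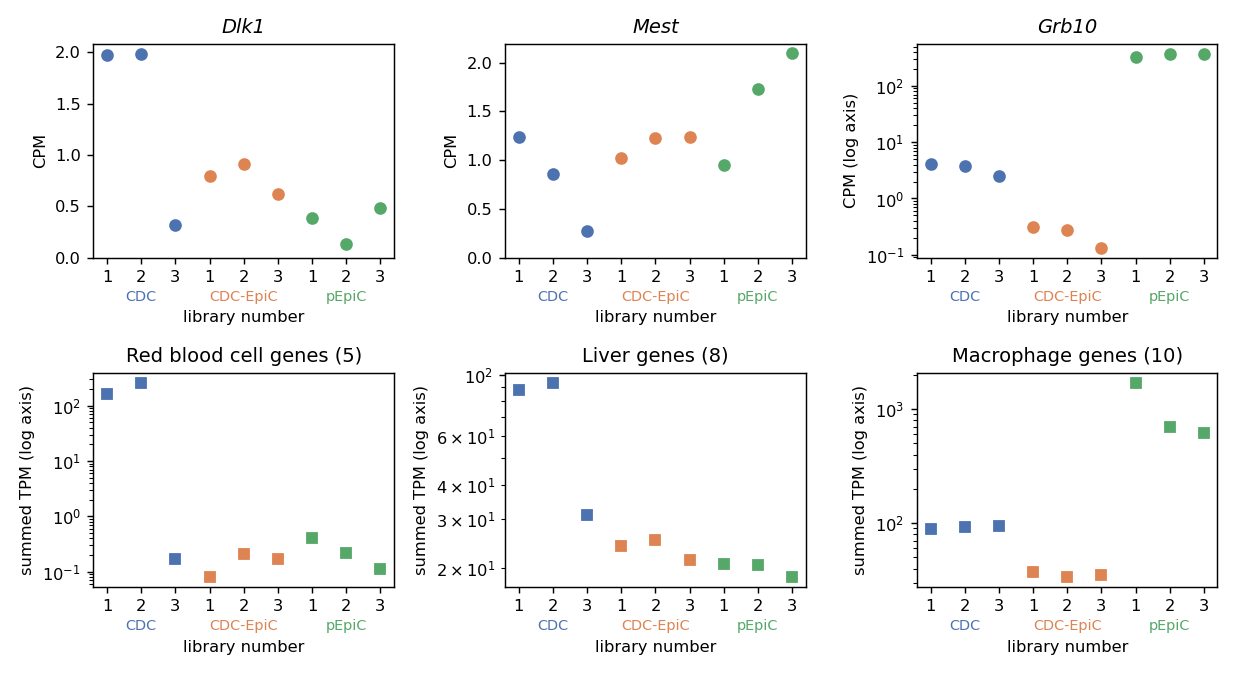
Upper row: CPM of Dlk1, Mest and Grb10 (log axis for Grb10) in each library. Lower row: summed TPM of 5 red blood cell, 8 liver and 10 macrophage genes (log axes), where CDC libraries 1 and 2 stand apart in blood and liver genes and pEpiC library 1 in macrophage genes.

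Sgce encodes epsilon-sarcoglycan, a membrane glycoprotein of the dystrophin-associated complex outside striated muscle. It lies on chromosome 6 from 4674350 to 4747204 and stood at 54.9, 49.4 and 60.1 CPM in CDC, 51.2, 55.4 and 52.2 in CDC-EpiC and 90.5, 90.3 and 86.1 in pEpiC. All pEpiC libraries were above all others, while CDC and the clone overlapped. The log2 change of pEpiC vs CDC was 0.66 (SE 0.07, adjusted p 1.1e-05), and that of CDC-EpiC vs pEpiC was −0.76 (SE 0.05). Sgce was close in CDC-EpiC and CDC, with a log2 change of −0.06 (SE 0.08, adjusted p 0.53).

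Grb10, an adaptor that binds the insulin and IGF1 receptors and dampens their signal, had the widest range of all members. The gene spans 11930499 to 12037428 on chromosome 11. The counts were 90, 85 and 56 in CDC, 7, 6 and 3 in CDC-EpiC and 7643, 8412 and 8545 in pEpiC, and no kind overlapped another. In CPM, it stood at 3.52 ± 0.851, 0.239 ± 0.0933 and 356 ± 23.2 (SD, n = 3). Grb10 rose 98.4-fold in pEpiC over CDC, at a log2 change of 6.62 (SE 0.14, adjusted p 2.5e-10). It fell in the clone against CDC, by 3.86 on the log2 scale (SE 0.32, adjusted p 5e-08), and it was lower in the clone than in pEpiC (log2 −10.52, SE 0.13, adjusted p 1.2e-11).

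The counts of Grb10 in the clone are few, so the folds against CDC-EpiC are imprecise, and on the log2(TPM + 1) scale the change against CDC was −1.02 (adjusted p 9.2e-07). Without pEpiC library 1, which had 329 CPM of Grb10 and the highest macrophage sum, the log2 change over CDC was 6.67. Without CDC libraries 1 and 2 it was 7.09 (adjusted p 9.9e-07).

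The partners and relatives of Grb10 moved by far less. Grb14, a relative with a like role, was at 52.4 ± 4.07 CPM in CDC, 14.4 ± 1.76 in CDC-EpiC and 46.6 ± 4.14 in pEpiC. Grb14 fell with Grb10 in the clone against CDC (log2 −1.87, SE 0.10, adjusted p 1.6e-10) and was slightly lower in pEpiC (log2 −0.20, SE 0.08, adjusted p 0.037). Irs2, a substrate of the insulin receptor, stood at 13.5 ± 1.13, 60.4 ± 5.66 and 22.5 ± 0.92 CPM in the same order, and rose in both pEpiC (log2 0.69) and the clone (log2 2.15) over CDC. The insulin receptor Insr was at 32.1 ± 3.43, 35.8 ± 3.63 and 67.8 ± 0.851 CPM. It rose in pEpiC over CDC (log2 1.04, SE 0.07, adjusted p 5.2e-07) and gave 0.15 (adjusted p 0.17) in the clone against CDC.

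Cdkn1c encodes p57, an inhibitor of cyclin-dependent kinases that holds cells out of the cell cycle. It lies on chromosome 7 from 143458339 to 143461059. The counts were 9, 27 and 13 in CDC, 7, 5 and 7 in CDC-EpiC and 223, 200 and 160 in pEpiC. Every pEpiC library was far above the others, and the clone lay below CDC with no overlap. Cdkn1c rose 10.9-fold in pEpiC over CDC, from 0.744 ± 0.425 to 8.42 ± 1.33 CPM (log2 3.45, SE 0.30, adjusted p 2.2e-06). The clone lay below pEpiC at a log2 change of −4.88 (SE 0.23, adjusted p 2.4e-08).

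For CDC-EpiC vs CDC, Cdkn1c fell under the count filter and was not tested. Without the filter its log2 change there was −1.38 (adjusted p 0.019), and DESeq2 gave −1.41 (adjusted p 0.061). Over the 8 settings that tested it, the adjusted p ran from 0.0049 to 0.13. Cdkn1a, which encodes the related inhibitor p21, did not share the rise in pEpiC. It was at 479 ± 35.8 CPM in CDC, 86.3 ± 6.22 in CDC-EpiC and 314 ± 22.3 in pEpiC, and was lower than CDC in the clone (log2 −2.48, SE 0.09) and in pEpiC (log2 −0.64, SE 0.08). Of 16 cell cycle genes, 16 were lower in pEpiC than in CDC and 15 were lower in the clone than in CDC. Over all genes tested, 38.5% and 34.6% were lower in these comparisons. Their summed level was 1154 to 1191 TPM in CDC, 612 to 782 in CDC-EpiC and 253 to 316 in pEpiC. The part of cycling cells in the level of Cdkn1c was not tested.

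Plagl1 and Peg3 are zinc finger proteins. Plagl1, also known as Zac1, is a transcription factor that arrests the cell cycle and acts on other imprinted genes. Its gene on chromosome 10 (13090832 to 13131694) had 21, 32 and 26 counts in CDC, 5, 11 and 3 in CDC-EpiC and 398, 392 and 413 in pEpiC. As with Grb10, the kinds did not overlap, with pEpiC highest and the clone lowest. Plagl1 rose 14-fold in pEpiC over CDC, from 1.2 ± 0.242 to 17.4 ± 0.561 CPM (log2 3.81, SE 0.14, adjusted p 6.9e-09). It fell in the clone against CDC by 2.07 on the log2 scale (SE 0.39, adjusted p 0.00023) and was lower there than in pEpiC (log2 −5.92, SE 0.23, adjusted p 7.7e-09). Its counts in the clone are few, and without CDC-EpiC library 2 the change was −2.74 (adjusted p 0.00012) against CDC and −6.58 against pEpiC.

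The sister genes of Plagl1 did not share 1 pattern. Plag1 had 48.02, 40 and 44 counts in CDC, 4, 0 and 2.97 in CDC-EpiC and 115.57, 129.94 and 130 in pEpiC. Its order of kinds was that of Plagl1, with log2 changes of 1.4 (SE 0.15) in pEpiC and −4.20 (SE 0.43) in the clone over CDC. Plagl2 rose in both, by a log2 change of 0.45 (SE 0.07) in pEpiC and of 1.14 (SE 0.08) in the clone.

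Peg3, a large zinc finger protein tied to cell survival and to stem cells of several tissues, lies on chromosome 7 from 6703892 to 6730462. It stood at 17.1, 17.5 and 19.6 CPM in CDC, 15.3, 13.6 and 13.1 in CDC-EpiC and 36.1, 40.3 and 34.5 in pEpiC. The 3 kinds did not overlap, with a small gap between CDC and the clone. The log2 change was 1.0 (SE 0.08, adjusted p 1.6e-06) in pEpiC vs CDC and −1.42 (SE 0.09) in CDC-EpiC vs pEpiC. In the clone against CDC it was −0.38 (SE 0.10, adjusted p 0.0025), a call that was lost on the log2(TPM + 1) scale at −0.24 (adjusted p 0.06).

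Peg3 is the member with the longest transcript, at 8955 bases as worked out from its counts and FPKM, and longer transcripts were favoured in pEpiC. Over 10683 genes the log2 change of pEpiC vs CDC rose by 0.447 per doubling of length. The slope was 0.0173 in CDC-EpiC vs CDC and −0.441 in CDC-EpiC vs pEpiC, so falls of the clone against pEpiC carry the same length bias. With a length offset Peg3 still rose in pEpiC, at 0.38 (adjusted p 0.0011). The offset moved the 4 members with the shortest transcripts upwards, Dlk1 (1516 bases) to −1.64, Ndn (1641 bases) to 0.74, Sgce (1686 bases) to 1.06 and Cdkn1c (1915 bases) to 3.76. It moved Grb10 down from 6.62 to 6.30 and Plagl1 from 3.81 to 3.46. Peg10, the next longest at 6731 bases, gave 1.18 or more in pEpiC vs CDC over all alternatives.

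**Figure D4:**
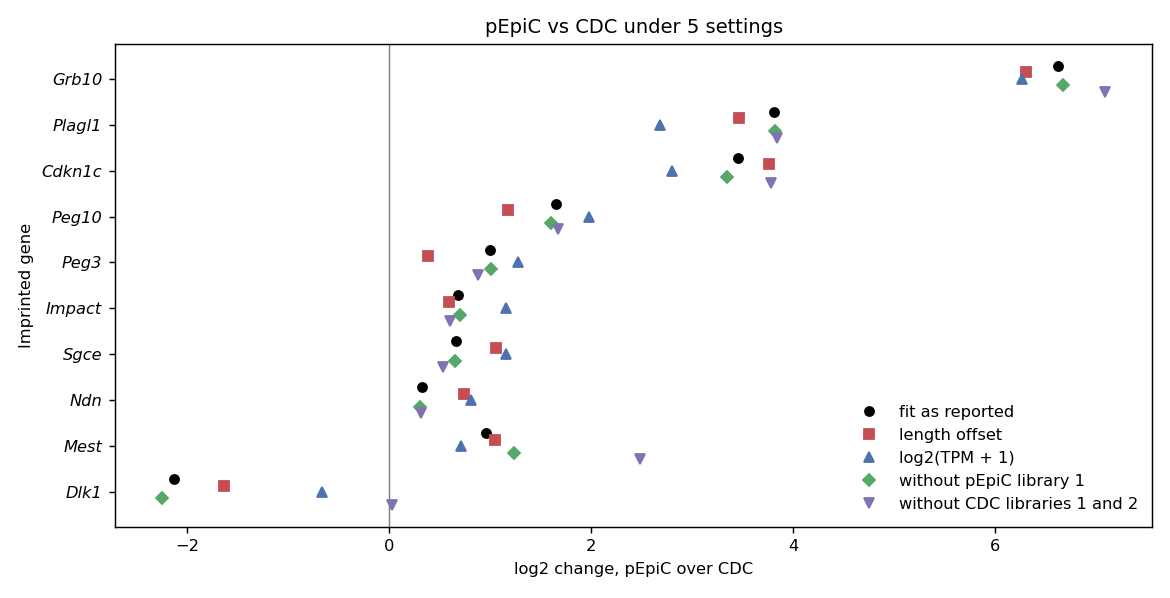
Log2 change of pEpiC over CDC for each member under 5 settings: the fit as reported, a length offset, log2(TPM + 1) values, and the fit without pEpiC library 1 or without CDC libraries 1 and 2. The points of Grb10, Plagl1, Cdkn1c, Peg10, Peg3, Impact, Sgce, Ndn and Mest stay above 0 under all 5, while Dlk1 runs from −2.25 to 0.03.

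Ndn encodes necdin, a protein of the MAGE family that restrains growth and binds E2F1 and p53. It lies on chromosome 7 from 62348277 to 62349928. The levels were 56.1, 54.3 and 55.6 CPM in CDC, 17.4, 19.1 and 18.9 in CDC-EpiC and 71.9, 67 and 73.1 in pEpiC. The libraries of a kind lay close together and the kinds did not overlap. Ndn fell in the clone against CDC, by 1.59 on the log2 scale (SE 0.08, adjusted p 7.4e-11), and it was the member with the smallest adjusted p in that comparison. It was lower in the clone than in pEpiC as well (log2 −1.95, SE 0.06). In pEpiC over CDC it rose by a log2 change of 0.32 (SE 0.06, adjusted p 0.0005).

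Mest, a hydrolase of the endoplasmic reticulum linked to fat storage and fetal growth, was low in all kinds. Its gene on chromosome 6 (30733506 to 30748466) had 27.17, 18.84 and 5.81 expected counts in CDC, 23.28, 27.35 and 28 in CDC-EpiC and 21.84, 39.65 and 47.65 in pEpiC. Its expected counts are not whole, nor are those of Peg3 and Impact, so part of the reads may have been divided between genes. No comparison passed in the fit as reported. The log2 change was 0.96 (SE 0.46, adjusted p 0.076) in pEpiC vs CDC, 0.54 (SE 0.37, adjusted p 0.2) in CDC-EpiC vs CDC and −0.46 (SE 0.30, adjusted p 0.17) in CDC-EpiC vs pEpiC.

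These values of Mest rest on single libraries. Without CDC libraries 1 and 2, pEpiC vs CDC gave 2.48 (adjusted p 0.014) and CDC-EpiC vs CDC gave 2.07 (adjusted p 0.0045). Without pEpiC library 1 the log2 change of pEpiC vs CDC was 1.23 (adjusted p 0.021) and that of CDC-EpiC vs pEpiC was −0.73 (adjusted p 0.013). Without CDC library 1 alone, pEpiC vs CDC gave 1.43 (adjusted p 0.035) and CDC-EpiC vs CDC gave 1.02 (adjusted p 0.042). On the log2(TPM + 1) scale pEpiC vs CDC gave 0.71 (adjusted p 0.0058).

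Peg10, derived from an ancient retrotransposon and needed for the placenta, lies on chromosome 6 from 4747306 to 4760517. Its start lies 102 bases from the start of Sgce, on the opposite strand, and both genes are used from the paternal copy. Peg10 stood at 24.1, 26.5 and 24.7 CPM in CDC, 20.6, 27.4 and 23 in CDC-EpiC and 85.9, 91.3 and 65.1 in pEpiC. Like Sgce, it was higher in all pEpiC libraries than elsewhere, and overlapped between CDC and the clone. The log2 change was 1.65 (SE 0.12, adjusted p 6.4e-07) in pEpiC vs CDC, −1.78 (SE 0.13) in CDC-EpiC vs pEpiC and −0.09 (SE 0.10, adjusted p 0.42) in CDC-EpiC vs CDC.

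Impact binds GCN1 and so holds back the kinase GCN2, which stops translation when amino acids are short. Its gene lies on chromosome 18 from 12954690 to 12992950. The levels were 104, 103 and 113 CPM in CDC, 81.4, 76.6 and 71.3 in CDC-EpiC and 168, 183 and 173 in pEpiC. The kinds did not overlap, in the order pEpiC, CDC and clone. The log2 change was 0.68 (SE 0.06, adjusted p 3.5e-06) in pEpiC vs CDC, −0.49 (SE 0.08, adjusted p 4.6e-05) in CDC-EpiC vs CDC and −1.21 (SE 0.06) in CDC-EpiC vs pEpiC.

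The genes of GCN2 and GCN1 did not pass the test in either comparison with CDC. The kinase gene Eif2ak4 gave log2 changes of 0.02 (adjusted p 0.78) in pEpiC and 0.11 (adjusted p 0.21) in the clone over CDC. Gcn1l1 gave −0.10 (adjusted p 0.22) and 0.00 (adjusted p 0.99) in the same order. Targets of the pathway were less even. Trib3 rose in pEpiC (log2 1.44, SE 0.08) and fell in the clone (log2 −1.12, SE 0.09) against CDC, while Asns, asparagine synthetase, gave −0.13 (adjusted p 0.06) in pEpiC and fell in the clone (log2 −1.15, SE 0.07). Atf4, the transcription factor of the pathway, gave 0.09 (adjusted p 0.18) in pEpiC and 0.05 (adjusted p 0.58) in the clone.

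Neighbours in the same imprinted clusters were compared next, since a cluster can share 1 control region. Around Grb10, both listed neighbours rose in the clone, where Grb10 fell. Ddc, which makes dopamine and serotonin, had 6, 4 and 10 counts in CDC, 165, 199 and 177 in CDC-EpiC and 28, 27 and 24 in pEpiC. Cobl, an actin nucleator, had 69, 72 and 67 counts in CDC, 486, 491 and 489 in CDC-EpiC and 160, 201 and 208 in pEpiC. Over CDC, the clone gave log2 changes of 4.70 (SE 0.24, adjusted p 1.9e-10) for Ddc and 2.78 (SE 0.11, adjusted p 4.8e-12) for Cobl. In pEpiC over CDC, where Grb10 rose, these were 1.85 (SE 0.34) and 1.34 (SE 0.14).

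Around Ndn, the neighbours Snrpn, Peg12 and Ube3a all fell in the clone against CDC, as Ndn did. Snrpn, which encodes a small nuclear ribonucleoprotein, stood at 12.2, 11.7 and 9.88 CPM in CDC, 2.84, 2.37 and 3.25 in CDC-EpiC and 14.9, 14.6 and 14.4 in pEpiC. The log2 change of CDC-EpiC vs CDC was −2.0 (SE 0.15, adjusted p 1.3e-08) for Snrpn, −2.05 (SE 0.20, adjusted p 3.3e-07) for Peg12 and −0.66 (SE 0.08, adjusted p 5.9e-06) for Ube3a. Ube3a, a ubiquitin ligase, is imprinted in neurons only. Snrpn and Snurf share reads, so their split is uncertain. Mkrn3, of the same cluster, had 7 to 9 counts in CDC, 7 to 19 in CDC-EpiC and 12 to 17 in pEpiC.

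Around Sgce and Peg10, the neighbours differed from each other. Asb4 had 0, 5 and 3 counts in CDC, 1, 0 and 0 in CDC-EpiC and 55, 50 and 39 in pEpiC, and rose in pEpiC over CDC (log2 4.0, SE 0.49, adjusted p 3.1e-05). Asb4 was at least 15.5-fold lower in the clone than in pEpiC, with 3 counts per library as the floor. The paraoxonase genes Pon2 and Pon3 fell in the clone against CDC (log2 −0.93, SE 0.08 and −0.31, SE 0.09), where Sgce and Peg10 did not pass the test. Ppp1r9a gave 0.45 (SE 0.10, adjusted p 0.0016) in pEpiC and 0.19 (adjusted p 0.12) in the clone over CDC.

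The Peg3 neighbour Zim1 was at 0 in all CDC libraries, had 0, 1 and 0 counts in CDC-EpiC and 23.01, 29 and 39 in pEpiC. It was at least 9.64-fold higher in pEpiC than in CDC, in the direction of Peg3. Around Dlk1, Dio3, a deiodinase that inactivates thyroid hormone, had 1, 4 and 3 counts in CDC, 3, 1 and 2 in CDC-EpiC and 74, 66 and 79 in pEpiC. Dio3 rose in pEpiC over CDC (log2 4.6, SE 0.33, adjusted p 6.4e-07). There Dlk1 was lower in the fit as reported, a change that rested on CDC libraries 1 and 2. Rtl1, between them, was at least 4.64-fold higher in pEpiC than in CDC, from 3, 2.05 and 0.96 counts to 17.98, 13 and 13.

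Igf2 was listed in the cluster of Cdkn1c, though genes of a cluster need not share a control region. Igf2 was lowest in pEpiC, where Cdkn1c was highest, and the counts of both lay lower in the clone than in CDC. Igf2 stood at 341, 355 and 451 CPM in CDC, 12.6, 15.9 and 15.9 in CDC-EpiC and 3.49, 2.9 and 3.67 in pEpiC, a log2 change of −6.86 (SE 0.14) in pEpiC and −4.70 (SE 0.13) in the clone over CDC. Slc22a18, a transporter, fell in the clone against CDC (log2 −1.86, SE 0.18, adjusted p 2.2e-07) and gave −0.24 (adjusted p 0.23) in pEpiC. Nap1l4 was lower than CDC in pEpiC (log2 −0.53, SE 0.06) and in the clone (log2 −0.44, SE 0.07). Osbpl5 gave 0.11 (adjusted p 0.11) in pEpiC and fell in the clone (log2 −0.75, SE 0.08). Tspan32 gave 0.27 (adjusted p 0.56) in pEpiC and 0.00 (adjusted p 0.99) in the clone. The Mest neighbour Copg2, a coat protein of transport vesicles, rose slightly in pEpiC (log2 0.29, SE 0.08) and in the clone (log2 0.23, SE 0.08).

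**Figure D5:**
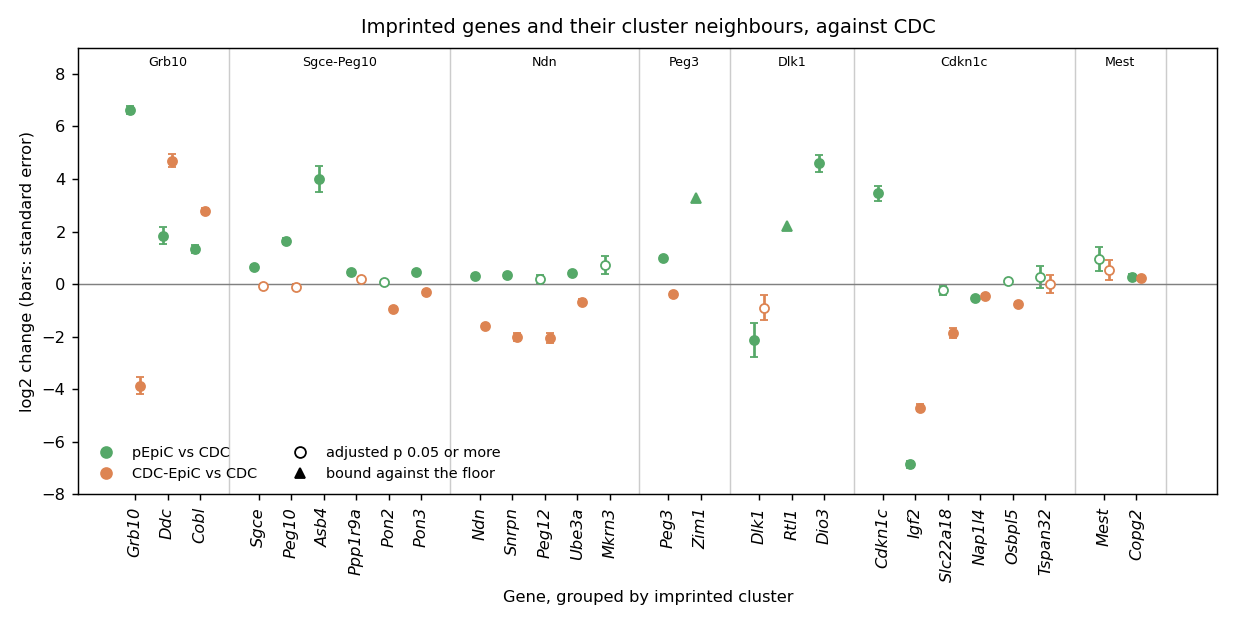
Log2 change over CDC of pEpiC and of CDC-EpiC for members and the neighbours tested in their imprinted clusters, with bars for the standard error, open circles where the adjusted p is 0.05 or more and triangles for bounds against a floor of 3 counts per library. Drawn members that were not tested in a comparison have no point there, as Cdkn1c in CDC-EpiC vs CDC. Plagl1, Impact and Snurf are not drawn, and genes grouped together need not share a control region. Ndn, Snrpn, Peg12 and Ube3a lie below 0 together in the clone, where Grb10 lies opposite to Ddc and Cobl, while all 3 lie above 0 in pEpiC.

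Over a list of 59 other imprinted genes, 44 were in the table. In pEpiC vs CDC, 35 of them were tested, 17 were higher, 9 lower and 9 did not pass, with a median log2 change of 0.29. In CDC-EpiC vs CDC, 8 of 27 were higher, 13 lower and 6 did not pass, with a median of −0.31. In CDC-EpiC vs pEpiC, 10 of 34 were higher, 17 lower and 7 did not pass, with a median of −0.30. The shares in each direction may be read against the 39.8% and 38.5%, the 34.2% and 34.6%, and the 40.3% and 41.5% of all genes given above. Outside the members' clusters, Slc38a4 and Zdbf2 had the widest changes in pEpiC vs CDC. Slc38a4, an amino acid transporter, rose from 6, 4 and 0 counts in CDC to 75, 79 and 72 in pEpiC (log2 4.34, SE 0.45). Zdbf2 was at least 12.6-fold higher in pEpiC, from 1, 3 and 0 counts to 37, 39 and 43.

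The machinery that keeps imprints was tested as a list of 15 genes, of which 14 passed the filter. In pEpiC vs CDC 8 were higher and 5 lower, in CDC-EpiC vs CDC 7 were higher and 5 lower, and in CDC-EpiC vs pEpiC 6 were higher and 4 lower. Over all genes the shares higher and lower were 39.8% and 38.5%, 34.2% and 34.6%, and 40.3% and 41.5% in the same order. Genes of maintenance methylation were lowest in pEpiC. Uhrf1, which brings the methyltransferase to replicated DNA, stood at 110, 101 and 98.4 CPM in CDC, 45.7, 43.8 and 55.9 in CDC-EpiC and 14.9, 11.2 and 11.4 in pEpiC. The kinds did not overlap, and Dnmt1, the maintenance methyltransferase, had the same order at 131 ± 4.71, 90.8 ± 9.9 and 47.1 ± 3.21 CPM. The summed cell cycle list had the same order of kinds, as given above, and its part in these levels was not tested.

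Zfp57, the factor whose core motif is marked in the windows, was highest in the clone. It stood at 48.9, 51.3 and 40.8 CPM in CDC, 121, 112 and 109 in CDC-EpiC and 27.7, 27.2 and 30 in pEpiC. Its log2 change was 1.27 (SE 0.09, adjusted p 8e-09) in the clone over CDC and −0.77 (SE 0.09, adjusted p 2.9e-05) in pEpiC over CDC. Zfp445, a zinc finger protein with a like role, was highest in pEpiC, with log2 changes of 0.40 (SE 0.09) in the clone and 1.35 (SE 0.06) in pEpiC over CDC.

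Partners and relatives of the members formed a list of 51 genes, 50 of them in the table. In pEpiC vs CDC 21 of 47 tested were higher and 19 lower, in CDC-EpiC vs CDC 12 of 46 were higher and 25 lower, and in CDC-EpiC vs pEpiC 16 of 47 were higher and 25 lower. These counts may be read against the shares of all genes in each direction given above. The complex around epsilon-sarcoglycan held 2 of the 3 widest falls of this list in the clone against CDC, with Plag1 as the other. Sgcd, delta-sarcoglycan, stood at 4.89, 3.58 and 5.23 CPM in CDC, 0.399, 0.41 and 0.267 in CDC-EpiC and 12.2, 14.8 and 15.5 in pEpiC, so that the clone fell by 3.66 against CDC on the log2 scale (SE 0.26, adjusted p 8e-09). For Dmd, dystrophin, counts of 100, 87.63 and 105.61 in CDC stood against 2.31, 2 and 1 in the clone, at least 33.3-fold fewer. Sgcb, beta-sarcoglycan, fell by 0.61 on the log2 scale (SE 0.09). Dag1, dystroglycan, rose there (log2 0.24, SE 0.10, adjusted p 0.043), and Sspn, sarcospan, gave 0.15 (adjusted p 0.21). Sgce itself did not pass the test in that comparison.

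Dlk2, a relative of Dlk1, had 135, 131 and 98 counts in CDC, 35, 37 and 41 in CDC-EpiC and 3, 1 and 1 in pEpiC. It was at least 42.6-fold lower in pEpiC than in CDC, and its CDC libraries were all above the other kinds. Notch3, a receptor of the pathway, fell in the clone against CDC (log2 −2.20, SE 0.10, adjusted p 3.1e-11) and was slightly higher in pEpiC (log2 0.39, SE 0.07). Acvrl1, a TGF-beta family receptor that PEG10 is known to bind, rose in pEpiC over CDC from 366, 290 and 310 to 3582, 3611 and 3656 counts (log2 3.38, SE 0.09).

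The genes with the patterns most like the 3 members of widest range were sought by Euclidean distance between centred log2(CPM + 1) profiles over the 9 libraries, among genes of at least 5 CPM on average. Grb10 was nearest to Mmp2, a matrix protease, at a distance of 0.71, then to Lama2 (1.41) and Mfap4 (1.62), which encode matrix proteins. Mmp2 averaged 12.9 CPM in CDC, 2.2 in CDC-EpiC and 1041 in pEpiC. Plagl1 was nearest to Il33 (0.51), Col15a1 (0.58) and Acvrl1 (0.68). Cdkn1c was nearest to Aldh1a2 (0.62), which makes retinoic acid in the epicardium, Tlcd2 (0.67) and Rarb (0.69), a retinoic acid receptor. Aldh1a2 averaged 2.31, 2.01 and 19.9 CPM in the same order. These distances describe likeness over libraries of 3 kinds and carry no test.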

How the data were processed

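Messenger RNA of CDC, CDC-EpiC and pEpiC was sequenced in paired reads of 100 bases (BGISEQ-500). The authors deposited 1 table with expected counts (not whole for 30.3% of values), TPM and FPKM for 3 libraries of each kind, and their means, which were not used further. The submitters' processing notes name HISAT2 2.0.4, Bowtie2 2.2.5, RSEM 1.2.12, DESeq2 1.4.5 and build mm10. The annotation and the use of strand are not given in the sources used here, so counts of overlapping or antisense genes are uncertain. The labels list 1 sample per kind. The extraction protocol speaks of separate samples, so the 3 columns were taken as replicates, although the study's methods speak of fewer replicates per condition. Their counts differed beyond sampling, as chi-square over degrees of freedom ran from 4.89 to 23.

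Expected counts were rounded and fitted for each pair of kinds in edgeR 4.0.16 under R 4.3.3 (filterByExpr with a minimum count of 10 and a minimum total of 15, TMM, glmQLFit, glmQLFTest), with Benjamini-Hochberg adjustment over all genes tested and 0.05 as the threshold. CPM are after TMM normalization. The standard error is the log2 change divided by the square root of F. This standard error thus includes the fitted spread between libraries, whereas the floors cover counting error of the low group only. Each fold given as at least a value is the mean CPM of the other group over the floor. The spread of that other group does not enter, and single libraries can lie below the fold. The alternatives were RLE, library size alone, DESeq2 1.42.0, no count filter, a filter of at least 10 counts in every library, all 9 libraries in 1 fit, a length offset, limma 3.58.1 on log2(TPM + 1), log2(FPKM + 1) and log2(TPM + 0.1), a test against a 1.5-fold change, a replicate block and leaving out each library. Leaving out CDC libraries 1 and 2 together, and the blood and liver lists, were chosen after seeing the data. The scripts were tested on simulated data. Figures were drawn with matplotlib 3.10.9 in Python 3.11.15, with pandas 2.3.3.

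The members and lists were chosen with earlier results of these data known. All 10 members are named. From other lists, genes of a member's imprinted cluster and up to 6 further genes with the largest change past the threshold were to be named, and other genes named were chosen after their values were seen. Genes most like a member were sought for the 3 members with the widest range. Gene positions were taken from a RefSeq gene list (GRCm38), matched by NCBI gene number.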

Additional observations from a re-analysis of the deposited data

How the results depend on the processing

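Over the alternatives, 489 of the log2 changes of single members kept their direction and their side of the threshold, 15 gained the call, 20 lost it and 6 changed sign. The sign changed for Dlk1 without CDC libraries 1 and 2 (0.03 in pEpiC vs CDC, 1.27 in CDC-EpiC vs CDC) and for Sgce in CDC-EpiC vs CDC, at 0.02 on log2(TPM + 1), 0.00 on log2(FPKM + 1), 0.02 on log2(TPM + 0.1), and from −0.13 to 0.01 when 1 library was left out. The test against a 1.5-fold change left 5 members higher in pEpiC vs CDC, 3 (all lower) in CDC-EpiC vs CDC and none (0) higher in CDC-EpiC vs pEpiC, and called 5549, 3664 and 6578 genes against 10593, 8928 and 11091. With at least 10 counts in every library, which removes low members from the fit, 0 were lower in pEpiC vs CDC, 3 (all lower) passed in CDC-EpiC vs CDC and 5 (all lower, 0 higher) in CDC-EpiC vs pEpiC. The single lower call of pEpiC vs CDC, Dlk1, was lost (0 members) on log2(TPM + 1), on log2(TPM + 0.1) and without CDC libraries 1 and 2, and the count ran from 0 to 1 when 1 library was left out. In CDC-EpiC vs CDC, 1 member (Mest) was higher without CDC libraries 1 and 2, and 0 to 1 when 1 library was left out. The single higher call of CDC-EpiC vs pEpiC, also Dlk1, fell to 0 in DESeq2, with all 9 libraries in 1 fit, with the length offset, on log2(TPM + 1) and on log2(TPM + 0.1), and ran from 0 to 1 when 1 library was left out. The cause was not tested.

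The library numbers did not pair the samples, with correlations of deviations from −0.101 to 0.163. With a replicate block 10 members passed in pEpiC vs CDC, Mest among them at 0.97 (adjusted p 0.04), and 5 and 9 passed in the other comparisons. Low counts limit Dlk1, Mest, Cdkn1c, Plagl1 and Grb10 outside the kinds where they are high. Where 2 CDC libraries are left out, CDC library 3 is assumed to vary like the other kind.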
